A study of Mus musculus with 5 samples.

Results

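Matrix metalloproteinases (MMPs), ADAM and ADAMTS proteases, ADAMTS-like proteins and tissue inhibitors of metalloproteinases (TIMPs) were examined in muscle stem cells of healthy and dystrophic mice. The members were all protein-coding genes of the deposited table whose symbols are Mmp, Adam, Adamts or Adamtsl with a number, or Timp1 to Timp4, and they number 62 of 22683 genes. They comprise 18 MMP, 16 ADAM, 19 ADAMTS, 5 ADAMTSL and 4 TIMP genes. The cells were quiescent satellite cells, the stem cells that rest beside the muscle fiber, taken by cell sorting from wild-type mice (2 libraries) and from mdx mice (3 libraries), whose Dmd gene is mutated and which serve as a model of Duchenne muscular dystrophy. Between 10000 and 20000 sorted cells went into each total RNA library, and values are normalized read counts. Strain, age, sex, muscle, sorting gate and the number of animals are not given in the labels, and nothing says that the libraries came from separate animals, so p-values reflect only how far these libraries vary, and that variation may be technical.

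MMPs and ADAMTS proteases cut the matrix around cells with a zinc ion in the active site, and are made as inactive precursors. ADAMs sit in the membrane, where some release growth factors, cytokines and the outer part of Notch receptors, while others have lost the active site and act in adhesion. ADAMTSL proteins resemble ADAMTS proteins but have no protease domain, and TIMPs block the active sites of these enzymes. In muscle, this system remodels the basement membrane and the scar-like matrix of injured or dystrophic tissue.

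A larger share of the members than of all tested genes was called higher in mdx, and none was called lower. Genes were tested with limma on log2(normalized count + 2) if they reached 10 normalized counts in at least 2 libraries, and called at a Benjamini-Hochberg adjusted p under 0.05 over all tested genes. Of 62 members, 52 were tested: 25 rose in mdx, 0 fell, and 27 did not pass. Over all 18199 tested genes, 14.6% were called higher and 10.3% lower, and the same count is 48.1% higher among the tested members. At an unadjusted p under 0.05 there were 28 members, among them Adam30, which lay lower in mdx. All 3 mdx libraries lay above both wild-type libraries for 30 tested members and below them for 2 (Adam17 and Adam30), against 28.2% above and 23.8% below over all tested genes. The median log2 fold change was 1.62 over the tested members and 0.13 over all tested genes.

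The low-value filter favors genes that are high in 1 genotype. Of the 52 tested members, 20 passed it through the mdx libraries alone, so for these a difference was built into the choice. Of these 20, 12 were called higher: Timp4, Mmp3, Mmp9, Mmp12, Mmp15, Mmp17, Mmp28, Adam12, Adam19, Adam23, Adamts3 and Adamtsl3. Among the 30 members with at least 10 normalized counts in both wild-type libraries, 13 rose and 0 fell, or 43.3%, where 12.1% of all such genes rose and 14.3% fell. Leaving out the mean-variance trend and robust moderation of limma lowered the count of risen members from 25 to 15. Fitting out, per library, the dependence on transcript length and GC content lowered it to 12. Without mdx 1, 2 or 3 it was 16, 16 and 17, and without wild type 1 or 2 it was 28 and 24. The 25 members kept a positive log2 fold change in every one of these fits. The count called higher over all tested genes was 2659 in the main fit. It was 1855 without trend and robust moderation, 1446 after length and GC correction, and 1709, 1491 and 1450 without mdx 1, 2 or 3.

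**Figure D1:**
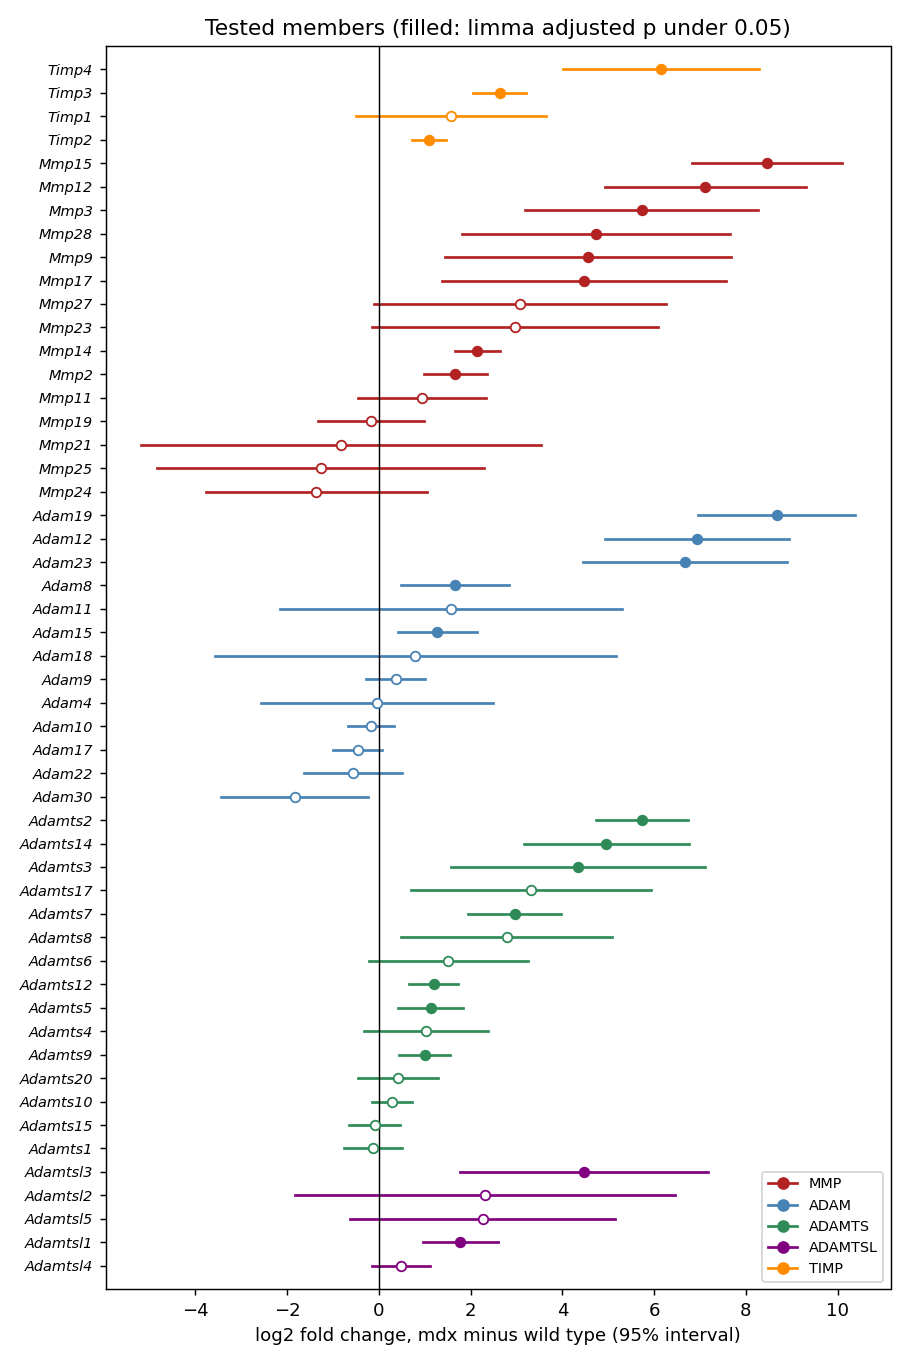
Log2 fold change (mdx minus wild type) of the 52 tested members with 95% intervals from the limma fit, grouped by class and colored by class. Filled points are the 25 members with an adjusted p under 0.05, all of them to the right of 0, and the widest intervals belong to genes with low or uneven counts.

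The libraries differed in more than these genes. They summed to between 12473348 and 16825045 normalized counts, and Dmd, the gene of the mdx mutation, was at 11826 and 9266 in the wild-type libraries against 4642, 4116 and 3700 in mdx. Xist was at 30235 and 30176 in the wild-type libraries against 0, 0 and 12 in mdx, and 4 genes of the Y chromosome were at 0 to 9 in wild type and at 430 to 967 in mdx, so genotype cannot be told apart from sex. Mitochondrial ribosomal RNA (mt-Rnr2) took 22.3% of mdx 1. Satellite cell markers were present in all libraries and summed to 100538 and 85914 in wild type against 60595, 55221 and 73087 in mdx. Of 12 markers, 6 fell, among them Sdc4 (10.0-fold), and 4 rose. After length and GC correction 4 were called lower and 0 higher. Pax7 was at 9103 and 7644 in the wild-type libraries against 12767, 9751 and 14989 in mdx and was not called (limma adjusted p = 0.0698). Among markers of other cells of muscle, 11 of 12 endothelial genes rose and 1 fell (Tek), 10 of 12 macrophage genes rose and 0 fell, and 9 of 12 genes of fibro-adipogenic progenitors (mesenchymal cells between the fibers) rose and 1 fell (Dpt, 4.80-fold lower). Of tendon cell genes 7 of 8 rose and 0 fell, of pericyte and smooth muscle genes 5 of 11 rose and 1 fell (Tagln), and of Schwann cell genes 7 of 12 rose and 1 fell (Scn7a). Summed Schwann cell markers were at 4425 and 4713 in wild type and lower in mdx, at 3572, 4361 and 3825. Of myofiber genes 4 of 11 rose and 0 fell, and they summed to 3999 and 3455 in wild type against 46323, 72328 and 29337 in mdx. Most of that sum was Ttn, at 2475 and 2100 in wild type against 37164, 64744 and 23685 in mdx. In bulk RNA, more cells of a type and more RNA per cell cannot be told apart, which holds for every rise below.

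Of the 4 TIMP inhibitors, Timp2, Timp3 and Timp4 rose and Timp1 did not pass. Timp2, which blocks many MMPs and also helps Mmp14 to activate the precursor of Mmp2, had normalized counts of 2848 and 2883 in wild type against 6071, 5568 and 6810 in mdx. The wild-type libraries were almost equal and every mdx library was more than 1.5 times higher. This was a 2.14-fold rise (log2 fold change 1.10, SE 0.17, limma adjusted p = 0.00184), whose call ended without trend and robust moderation (adjusted p = 0.0773). Timp3, the inhibitor that binds to the matrix and also blocks Adam17 and several ADAMTS proteases, had 751 and 496 in the wild-type libraries against 4583, 3853 and 3112 in mdx. The groups were far apart, and the rise was 6.21-fold (log2 fold change 2.64, SE 0.25, limma adjusted p = 0.000167).

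Timp4, an inhibitor best known from the heart, had normalized counts of 6 and 0 in wild type against 284, 407 and 192 in mdx. Wild type was near 0, so the log2 fold change of 6.15 (limma adjusted p = 0.00193) rests on the added 2 and on 1 library: it was 7.14 with wild type 1 left out and 5.14 with wild type 2 left out. Timp1, the inducible inhibitor of inflamed tissue, had 14 and 69 in the wild-type libraries against 96, 159 and 61 in mdx. Its mdx 3 library lay below wild type 2, and it did not pass (log2 fold change 1.57, 95% interval −0.50 to 3.63, limma adjusted p = 0.242). Timp1 lies on chromosome X, and sex-linked transcripts differed between the genotypes, as given above.

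Timp1, Timp3 and Timp4 lie inside synapsin genes on the opposite strand. The kit kept strand, per the labels, but the strand setting of the counting was not stated in the sources used here. In GENCODE M21, Timp3 (chromosome 10, 86300372 to 86349506, mm10) shares 1733 of its 8144 exon bases with Syn3, Timp4 shares 90 of 5894 with Syn2, and Timp1 shares 0 of 888 with Syn1. Syn3 itself was at 0 and 51 in the wild-type libraries against 31, 14 and 1 in mdx. Syn2 was at 30 and 96 in the wild-type libraries against 67, 7 and 102 in mdx, and Syn1 at 52 and 7 and at 55, 6 and 33. None of Syn3, Syn2 and Syn1 was called by limma (adjusted p = 0.952, 0.809 and 0.934). In wild type the Syn2 values exceeded those of Timp4, and the Syn1 values (52 and 7) were of the same order as those of Timp1 (14 and 69). The part of synapsin reads in the TIMP values was not tested.

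**Figure D2:**
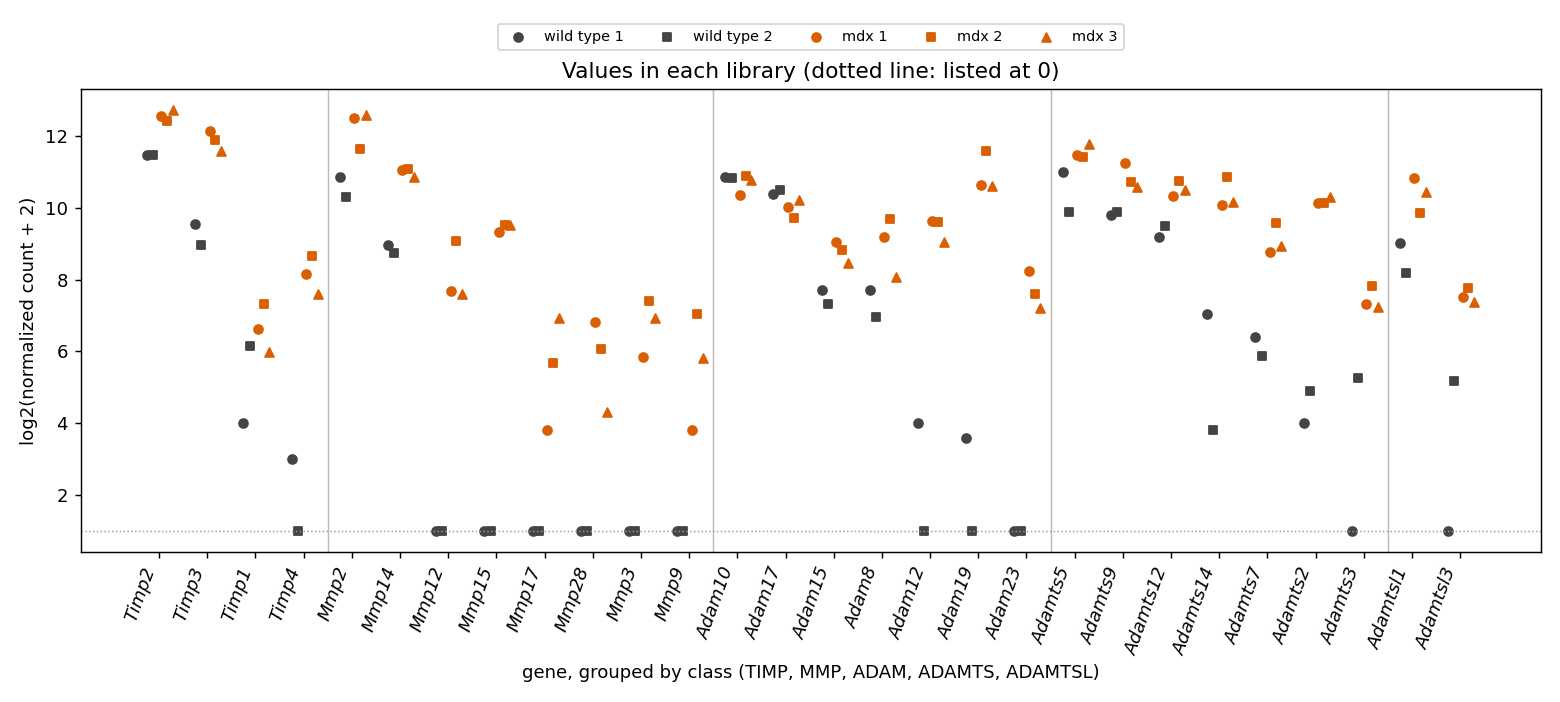
Values of the 25 risen members and of Timp1, Adam10 and Adam17 in each library, as log2(normalized count + 2), with wild-type libraries in grey and mdx libraries in orange. Points on the dotted line are listed at 0. All 3 mdx points lie above both wild-type points for each gene except Timp1, Adam10 and Adam17.

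The membrane-bound protease Mmp14 and its target Mmp2 both rose. Mmp14 (chromosome 14, 54431612 to 54445364), which cuts collagen at the cell surface and activates the Mmp2 precursor, had normalized counts of 495 and 429 in wild type against 2127, 2166 and 1850 in mdx. The spread within each genotype was small beside the 4.42-fold difference (log2 fold change 2.14, SE 0.22, limma adjusted p = 0.000227). Mmp2, the gelatinase that digests denatured and basement membrane collagen, had 1867 and 1278 in the wild-type libraries against 5888, 3220 and 6215 in mdx. The mdx 2 library was the lowest of the 3 but still above both wild-type libraries, and the rise was 3.17-fold (log2 fold change 1.66, SE 0.30, limma adjusted p = 0.00468). The call for Mmp2 ended without mdx 1 (limma adjusted p = 0.0566), without mdx 3 (0.0564) and without trend and robust moderation (0.0784).

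Of the membrane-type MMPs other than Mmp14, 2 rose from 0. Mmp15, a transmembrane MMP related to Mmp14, had no counts (listed at 0) in wild type, against 638, 732 and 739 in mdx (limma adjusted p = 9.51e-05). The mdx libraries were close to each other. Mmp17, which is held by a lipid anchor, was also at 0 in wild type, against 12, 49 and 120 in mdx (limma adjusted p = 0.0422). Its mdx values spanned a wide range, and the call ended without wild type 2 (adjusted p = 0.0607), mdx 2 (0.0873) or mdx 3 (0.0833), with a pseudocount of 10 (0.0635), after quantile normalization (0.079), with the replicate number as a block (0.14) and after length and GC correction (0.122). Mmp24 was at 121 and 27 in the wild-type libraries against 31, 14 and 22 in mdx, Mmp25 at 15 and 3 and at 0, 0 and 12, and neither passed. Mmp16 was counted only in mdx 1 (75) and was not tested. Endothelial markers summed to 3394 and 2888 in the wild-type libraries against 29564, 26048 and 21758 in mdx, with Ptprb, Cldn5 and Emcn at 0 in wild type. Most of the wild-type sum was Tek, at 3223 and 2568 in wild type against 1429, 1790 and 2025 in mdx. Tek was the 1 endothelial marker that fell, while 11 rose. Fibro-adipogenic markers summed to 31932 and 25904 in the wild-type libraries against 51576, 30630 and 44733 in mdx, with Mfap5 at 0 in wild type. These sums overlapped between the genotypes. Most of the wild-type fibro-adipogenic sum was Gsn (17849 and 13729, not called) and Dpt (9675 and 9371, lower in mdx), while 9 of 12 markers rose. The part of either cell type in these rises was not tested.

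Of the secreted MMPs known from inflamed tissue, 4 were listed at 0 in wild type and rose in mdx. Mmp12, the macrophage elastase, had no counts (listed at 0) in wild type, against 203, 536 and 192 in mdx (limma adjusted p = 0.00104). Mmp3, the stromelysin that also activates other MMPs, was at 0 in wild type, against 56, 167 and 121 in mdx (limma adjusted p = 0.00651). Mmp9, the second gelatinase and a product of neutrophils and macrophages, was at 0 in wild type, against 12, 131 and 54 in mdx (limma adjusted p = 0.0401). For Mmp12, Mmp3 and Mmp9 alike, mdx 2 was the highest library. Mmp28 (epilysin) was at 0 in wild type, against 112, 65 and 18 in mdx (limma adjusted p = 0.0274), with mdx 1 the highest.

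Mmp12, Mmp3, Mmp9 and Mmp28 passed the low-value filter through the mdx libraries alone, and their calls were not equally firm. The call for Mmp12 held in each alternative fit and that for Mmp3 in each but the one with the replicate number as a block (adjusted p = 0.0551). That for Mmp9 ended without mdx 2 (limma adjusted p = 0.0789), without mdx 3 (0.0953), with a pseudocount of 10 (0.0598), after quantile normalization (0.0732), after length and GC correction (0.075) and with the replicate block (0.114). That for Mmp28 ended without mdx 1 (0.0566) or mdx 2 (0.0666), after length and GC correction (0.068) and with the replicate block (0.0585). Macrophage markers summed to 428 and 667 in the wild-type libraries against 14523, 18366 and 11871 in mdx. Of the 12 macrophage markers, Mrc1, Itgam, C1qa, C1qb and C1qc were at 0 in both wild-type libraries. Neutrophil and mast cell markers summed to 10 and 35 in the wild-type libraries against 388, 1037 and 371 in mdx. Of the 7 tested neutrophil and mast cell markers, 2 rose (Kit and Csf3r), 0 fell and 5 were not called. The part of these cell types in the MMP values was not tested.

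The collagenases were sparse. Mmp8, the neutrophil collagenase, was counted only in mdx 2 (237). Of the 9 neutrophil and mast cell markers in the table, 7 were highest in mdx 2, among them S100a9 (0 and 22 in wild type, then 57, 389 and 51), while Csf3r was highest in mdx 3 (4 and 0, then 72, 142 and 207) and Kit in mdx 1 (0 and 0, then 163, 147 and 92). Mmp13, the collagenase of cartilage and bone, was counted only in mdx 3 (45). Neither reached the filter, so neither was tested. Of the remaining MMPs, Mmp19 had 171 and 162 in the wild-type libraries against 198, 108 and 151 in mdx, with the groups overlapping (log2 fold change −0.17, 95% interval −1.33 to 0.99). Mmp11 (124 and 67, then 102, 215 and 252), Mmp21 (0 and 40, then 0, 0 and 33), Mmp23 (0 and 45, then 62, 64 and 102) and Mmp27 (0 and 0, then 36, 5 and 16) did not pass. Mmp23 was called higher without wild type 2 (log2 fold change 5.25).

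Mmp13, Mmp12, Mmp3, Mmp8 and Mmp27 lie within 1 stretch of chromosome 9 in mm10, from 7272514 to 7581415, which also holds genes that are not members, such as Mmp1b. All 5 were at 0 in wild type, Mmp12 and Mmp3 rose, Mmp27 did not pass, and Mmp8 and Mmp13 were counted in 1 mdx library each. The distances from one member to the next ranged from 2.91 kb (Mmp8 and Mmp27) to 102 kb (Mmp3 and Mmp8). A bit of Mmp12 (157 of 7237 exon bases) is shared with Mmp1b on the other strand. Among other members near each other, Adamts5 rose while Adamts1, 55.1 kb away on chromosome 16, did not pass. Adam5 and Adam32, 11.8 kb apart on chromosome 8, were both at 0 in wild type and low in mdx, while Adam9, 0.806 kb from Adam32, was at 720 to 1439 in all libraries.

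Promoters of some of the risen genes are shown because these genes were all called higher but differ in the letters around their start sites. Promoter windows of 300 bases (250 before the start and 50 from it) came from RefSeq (GRCm38.p6), where 38 of the 62 members matched by symbol. Motifs were searched on both strands: the AP-1 site TGANTCA, the TATA box TATAAA, the GC box GGGCGG and the E-box CAGCTG, none of which contains another. Matches are in capitals, 5′ to 3′. Mmp3 is at chr9:7445572-7445871, Mmp12 (the second of 2 starts in the table) at chr9:7347124-7347423, Adam19 (the second of 3) at chr11:46055734-46056033, Mmp15 at chr8:95352046-95352345, Timp3 at chr10:86300162-86300461 and Adamts2 at chr11:50601835-50602134, all on the plus strand.
Mmp3: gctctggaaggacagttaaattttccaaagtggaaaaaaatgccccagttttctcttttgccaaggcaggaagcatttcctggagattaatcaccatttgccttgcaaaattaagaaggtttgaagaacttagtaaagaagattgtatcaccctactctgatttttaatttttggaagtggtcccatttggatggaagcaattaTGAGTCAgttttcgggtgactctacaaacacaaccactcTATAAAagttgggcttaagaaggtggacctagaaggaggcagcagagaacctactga
Mmp12: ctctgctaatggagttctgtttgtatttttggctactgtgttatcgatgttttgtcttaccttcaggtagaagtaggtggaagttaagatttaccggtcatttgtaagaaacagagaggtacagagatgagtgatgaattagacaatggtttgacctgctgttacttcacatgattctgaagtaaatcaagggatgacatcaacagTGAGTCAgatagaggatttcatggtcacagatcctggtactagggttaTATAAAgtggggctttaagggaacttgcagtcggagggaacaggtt
Adam19: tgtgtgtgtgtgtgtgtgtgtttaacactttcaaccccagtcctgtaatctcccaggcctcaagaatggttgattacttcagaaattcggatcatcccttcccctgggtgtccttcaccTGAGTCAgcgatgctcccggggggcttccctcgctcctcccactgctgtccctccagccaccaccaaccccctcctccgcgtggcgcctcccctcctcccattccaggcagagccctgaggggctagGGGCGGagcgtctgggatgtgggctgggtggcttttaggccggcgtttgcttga
Mmp15: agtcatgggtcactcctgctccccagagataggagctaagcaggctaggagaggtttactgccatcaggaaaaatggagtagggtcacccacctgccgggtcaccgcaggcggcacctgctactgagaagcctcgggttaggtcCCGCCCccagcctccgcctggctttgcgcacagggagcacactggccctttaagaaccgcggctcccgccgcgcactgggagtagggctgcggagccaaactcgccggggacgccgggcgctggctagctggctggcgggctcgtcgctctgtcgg
Timp3: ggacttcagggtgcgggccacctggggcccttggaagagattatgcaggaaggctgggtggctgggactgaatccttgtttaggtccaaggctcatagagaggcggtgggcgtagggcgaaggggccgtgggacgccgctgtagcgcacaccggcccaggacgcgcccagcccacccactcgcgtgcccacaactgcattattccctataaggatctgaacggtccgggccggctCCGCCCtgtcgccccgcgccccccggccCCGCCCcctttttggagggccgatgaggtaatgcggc
Adamts2: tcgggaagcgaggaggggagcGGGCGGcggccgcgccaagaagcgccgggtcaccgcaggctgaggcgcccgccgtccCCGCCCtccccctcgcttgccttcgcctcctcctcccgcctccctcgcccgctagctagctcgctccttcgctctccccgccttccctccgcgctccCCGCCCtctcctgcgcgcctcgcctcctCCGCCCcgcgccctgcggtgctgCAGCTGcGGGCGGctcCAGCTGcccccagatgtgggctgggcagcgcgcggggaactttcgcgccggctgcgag

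The Mmp3 window and the Mmp12 window shown hold an AP-1 match whose first base lies 46 and 44 bases before the start. The letters TATAAA begin 7 bases before the Mmp3 start, and in the Mmp12 window they lie after the start. The other Mmp12 window, whose start is that of the gene in the deposited table, holds none of the 4 motifs. Adam19 has an AP-1 match 131 bases before the start shown, and its other 2 windows have none. Mmp3 and Mmp12 are poor in G and C (40.0% and 40.7%), against 66.0% in Mmp15, 67.0% in Timp3 and 77.3% in Adamts2, which hold GC boxes and no TATA box or AP-1 match. Over all windows of this length in the table, 7.81% hold the AP-1 site, 13.6% the TATA box, 35.7% the GC box and 16.3% the E-box. Among the 42 member windows, 9.52% hold the AP-1 site (Adam19, Mmp3, Mmp12 and Mmp13), 16.7% the TATA box, 64.3% the GC box and 26.2% the E-box. The GC box was found in 12 of 17 windows of members that did not pass and in 13 of 21 windows of those that rose. The AP-1 site was found in 0 of 17 and in 3 of 21 of these windows, and those 3 are all among the windows shown. These matches describe letters only.

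The general sheddases of the ADAM class did not pass. Adam10, which releases Notch ectodomains, had normalized counts of 1854 and 1843 in wild type against 1320, 1898 and 1760 in mdx. The groups overlapped, and the log2 fold change was −0.17 (95% interval −0.67 to 0.33, limma adjusted p = 0.602), reaching 0.016 when libraries were scaled to equal totals. Adam17, the enzyme that releases tumor necrosis factor and ligands of the epidermal growth factor receptor, had 1345 and 1456 in the wild-type libraries against 1036, 842 and 1199 in mdx. Each mdx library was lower than either wild-type library, but the difference did not pass (log2 fold change −0.46, 95% interval −0.99 to 0.07, limma adjusted p = 0.182). The adjusted p ranged from 0.425 to 0.976 for Adam10 and from 0.143 to 0.486 for Adam17 over all fits. Adam9, a further broadly expressed member, had 1088 and 720 in the wild-type libraries against 1439, 929 and 1119 in mdx and did not pass (log2 fold change 0.37, 95% interval −0.27 to 1.01).

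Adam19, Adam12 and Adam23 rose from near 0. Adam19 (meltrin beta; chromosome 11, 46055992 to 46147343), which cuts neuregulins, had normalized counts of 10 and 0 in wild type against 1605, 3096 and 1581 in mdx. The lowest mdx library held more than 100 times the highest wild-type value. Its log2 difference was 8.67 (SE 0.75, limma adjusted p = 0.000107), or 9.96 with wild type 1 left out and 7.37 with wild type 2 left out. Adam12 (meltrin alpha), a protein of myoblast fusion and of activated mesenchymal cells, had 14 and 0 in the wild-type libraries against 790, 788 and 525 in mdx. The Adam12 log2 difference was 6.93 (SE 0.89, limma adjusted p = 0.000762), or 8.43 with wild type 1 left out and 5.43 with wild type 2 left out. Adam23, which has no active protease site and binds integrins and LGI proteins, was at 0 in wild type, against 300, 193 and 145 in mdx (limma adjusted p = 0.00154). All 3 passed the low-value filter through the mdx libraries alone, so a difference was built into their choice. They stayed called after length and GC correction and in every other fit that kept both wild-type libraries.

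Adam8 and Adam15 rose less and less firmly. Adam8, found on leukocytes, had 209 and 122 in the wild-type libraries against 589, 825 and 268 in mdx, a 3.15-fold rise (log2 fold change 1.65, SE 0.52, limma adjusted p = 0.0469). The gap between the groups was narrow, since mdx 3 lay near wild type 1. The call ended without mdx 1 (adjusted p = 0.174) or mdx 2 (0.173), with a pseudocount of 0.5 (0.0612), without trend and robust moderation (0.148), with the replicate block (0.0542) and after length and GC correction (0.237). Adam15, an ADAM of endothelium and other adherent cells, had 208 and 157 in the wild-type libraries against 531, 456 and 352 in mdx, a 2.42-fold rise (limma adjusted p = 0.0382). Its call ended without wild type 2 (0.105), mdx 1 (0.113), mdx 2 (0.102) or mdx 3 (0.0656), without trend and robust moderation (0.083), with the replicate block (0.10) and after length and GC correction (0.468). Adam15 shares 1263 of 6145 exon bases with the antisense gene 4731419I09Rik.

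The remaining ADAM genes were low or uneven, and Adam4, Adam5, Adam18, Adam30 and Adam32 are known mainly from testis. Adam30 had 429 and 296 in the wild-type libraries against 203, 123 and 38 in mdx, with no overlap, but did not pass (log2 fold change −1.83, 95% interval −3.43 to −0.23, limma adjusted p = 0.0902). It was called lower only without wild type 2 (log2 fold change −2.10, adjusted p = 0.0244). Adam22, a protease-dead relative of Adam23, had 553 and 225 in the wild-type libraries against 231, 200 and 293 in mdx and did not pass. Adam4 (16 and 66, then 27, 73 and 16), Adam11 (0 and 19, then 2, 30 and 55) and Adam18 (35 and 0, then 0, 96 and 15) did not pass either. Adam5, Adam32 and Adam33 were at 0 in wild type, reached at most 24 in mdx and were not tested.

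Among ADAMTS genes, the 3 that trim procollagens all rose. Adamts2 (chromosome 11, 50602084 to 50807573), the main procollagen N-propeptidase, had normalized counts of 14 and 28 in wild type against 1119, 1126 and 1263 in mdx. The mdx libraries were nearly equal, and the rise was 53.4-fold (log2 fold change 5.74, SE 0.44, limma adjusted p = 5.4e-05). Adamts14 had 129 and 12 in the wild-type libraries against 1085, 1856 and 1158 in mdx (log2 fold change 4.95, SE 0.79, limma adjusted p = 0.00242). The wild-type libraries differed more than 10-fold, so the log2 fold change was 6.57 with wild type 1 left out and 3.34 with wild type 2 left out, and its call ended after length and GC correction (adjusted p = 0.0533). Adamts3 had 0 and 36 in the wild-type libraries against 157, 227 and 149 in mdx (log2 fold change 4.34, limma adjusted p = 0.031). Its log2 fold change was 2.22 with wild type 1 left out and 6.46 with wild type 2 left out. The call for Adamts3 ended without mdx 1, 2 or 3 (adjusted p = 0.124, 0.137 and 0.127), with a pseudocount of 0.5 (0.0617), without trend and robust moderation (0.0991), with the replicate block (0.0829) and after length and GC correction (0.105).

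Substrates of these 3 enzymes rose beside them. Col1a2 had normalized counts of 32 and 32 in wild type against 31652, 23470 and 22299 in mdx, and Col1a1 had 151 and 86 and then 39668, 16068 and 20022. Pcolce, which enhances the trimming of the other procollagen end, rose 4.96-fold and Bmp1, the protease that does it, 2.80-fold (limma adjusted p = 0.0026 and 0.00114). The call for Bmp1 ended after length and GC correction (adjusted p = 0.149). Tendon cell markers summed to 438 and 838 in the wild-type libraries against 24084, 9957 and 9480 in mdx, with Thbs4, Tnmd and Kera at 0 in wild type. Their part in these rises was not tested.

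The 2 ADAMTS proteases that cut cartilage oligomeric matrix protein (COMP) also rose. Adamts7 had 82 and 57 in the wild-type libraries against 434, 766 and 488 in mdx, a 7.78-fold rise (log2 fold change 2.96, SE 0.45, limma adjusted p = 0.00176). Adamts12 had 578 and 719 in the wild-type libraries against 1296, 1724 and 1453 in mdx, a 2.29-fold rise (log2 fold change 1.20, SE 0.24, limma adjusted p = 0.00701). In both genes the groups were clearly apart. Both calls ended after length and GC correction (adjusted p = 0.0821 for Adamts7 and 0.28 for Adamts12), and that for Adamts12 also without trend and robust moderation (0.0768). Comp itself had 13 and 5 in the wild-type libraries against 748, 306 and 267 in mdx and rose.

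Of the proteases that cut versican and aggrecan, Adamts5 and Adamts9 rose and 5 did not pass. Adamts5, the aggrecanase of cartilage that also clears versican, had 2058 and 939 in the wild-type libraries against 2874, 2771 and 3537 in mdx (2.19-fold, log2 fold change 1.13, SE 0.31, limma adjusted p = 0.0286). The wild-type libraries differed from each other more than 2-fold. Its call ended without wild type 2 (log2 fold change 0.56, adjusted p = 0.109), mdx 1 (0.116), mdx 2 (0.101) or mdx 3 (0.144), without trend and robust moderation (0.171), with the replicate block (0.0913) and after length and GC correction (0.361). Adamts9 had 901 and 944 in the wild-type libraries against 2430, 1690 and 1551 in mdx, a 2.01-fold rise (SE of log2 0.24, limma adjusted p = 0.0175). Its log2 fold change went from 1.01 to 0.21 after length and GC correction (adjusted p = 0.66), and the call ended also without mdx 1 (0.0557) or mdx 2 (0.0612), without trend and robust moderation (0.132) and with the replicate block (0.0572).

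Adamts1, a further versican protease, had the highest mean of all members per kb of exon in wild type, although Timp2 was higher in wild type 2 (740 against 601). It had normalized counts of 6057 and 3187 in wild type against 5022, 3498 and 3761 in mdx and did not pass (log2 fold change −0.12, 95% interval −0.75 to 0.51), with a sign that turned positive when scaled to equal totals (0.068), after quantile normalization (0.17) and without wild type 1 (0.34). Adamts15 had 1117 and 1306 in the wild-type libraries against 1414, 1024 and 1004 in mdx, so that both wild-type values lay within the mdx range. Adamts4 had 177 and 762 in the wild-type libraries against 567, 1278 and 591 in mdx, and was called higher only without wild type 2 (log2 fold change 2.08). Adamts8 (70 and 5, then 122, 147 and 198) and Adamts20 (616 and 525, then 1265, 500 and 693) did not pass. Adamts8 was called higher without wild type 1 (log2 fold change 4.47).

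The ADAMTS genes that act on fibrillin microfibrils did not pass. Adamts10 had 1501 and 1448 in the wild-type libraries against 1758, 1694 and 1970 in mdx, with no overlap but a log2 fold change of only 0.29 (95% interval −0.15 to 0.73), which turned to −0.63 after length and GC correction. Adamts17 had 11 and 2 in the wild-type libraries against 35, 160 and 59 in mdx, and Adamts6 had 114 and 36 and then 87, 232 and 329. Both were called higher only without wild type 1 (log2 fold change 4.16 and 2.32). Adamts13, the protease of von Willebrand factor, was the 1 member at 0 in all mdx libraries (26 and 0 in wild type). Adamts16, Adamts18 and Adamts19 were at 0 in wild type and at most at 47 in mdx. These last 4 were not tested.

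Of the 5 ADAMTSL genes, 2 rose. Adamtsl1 (punctin) had 519 and 291 in the wild-type libraries against 1834, 923 and 1409 in mdx, a 3.43-fold rise (log2 fold change 1.78, SE 0.36, limma adjusted p = 0.00788). Adamtsl3 had 0 and 34 in the wild-type libraries against 181, 216 and 166 in mdx (log2 fold change 4.47, limma adjusted p = 0.0257). Its mdx values were close to each other, but the wild-type libraries set the size: 2.39 with wild type 1 left out and 6.56 with wild type 2 left out. The call for Adamtsl1 ended without mdx 1 (adjusted p = 0.0609) or mdx 3 (0.0695), without trend and robust moderation (0.077) and after length and GC correction (0.266). That for Adamtsl3 ended without mdx 1, 2 or 3 (0.116, 0.118 and 0.117), with a pseudocount of 0.5 (0.0545), without trend and robust moderation (0.0877), with the replicate block (0.0801) and after length and GC correction (0.129). Adamtsl4, a fibrillin-binding protein, had 667 and 878 in the wild-type libraries against 1340, 832 and 1111 in mdx and did not pass, and its log2 fold change went from 0.49 to −0.60 after length and GC correction. Adamtsl2 (3 and 0, then 120, 14 and 0) and Adamtsl5 (2 and 19, then 39, 18 and 102) did not pass.

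**Figure D3:**
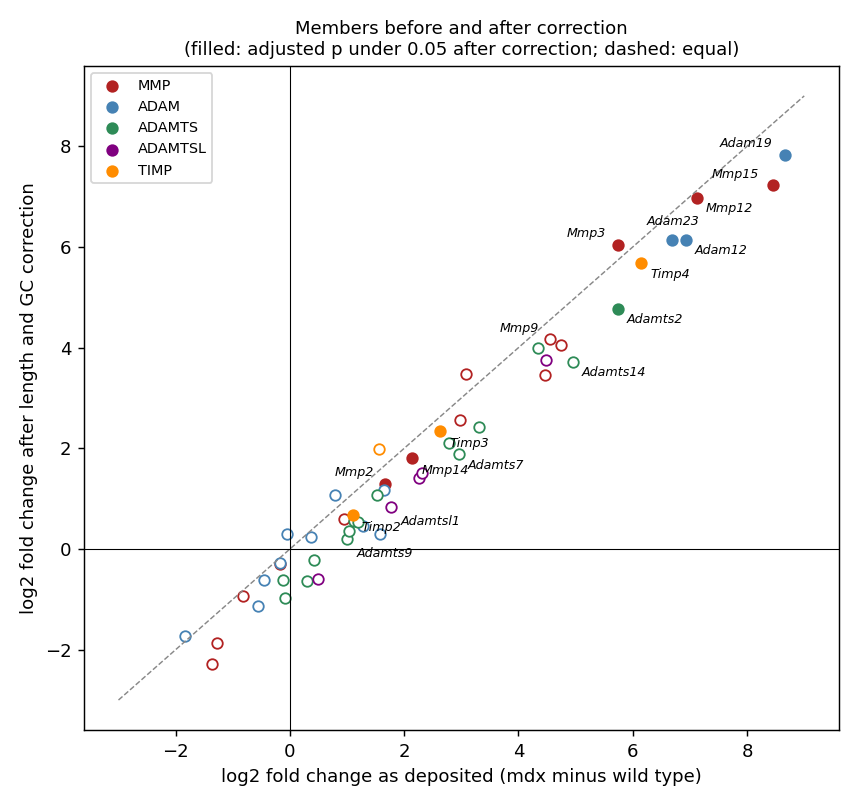
Log2 fold change (mdx minus wild type) of the 52 tested members as deposited, on the horizontal axis, and after the dependence on transcript length and GC content was fitted out per library, on the vertical axis, colored by class. Most points lie below the dashed line of equal values, and the 12 filled points are those with an adjusted p under 0.05 after the correction.

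Length and GC correction lowered most members. The 12 that stayed called were Adamts2, Mmp15, Adam19, Timp3, Mmp14, Adam12, Mmp12, Adam23, Timp2, Timp4, Mmp2 and Mmp3. Of these, Mmp15, Adam19, Adam12, Mmp12, Adam23, Timp4 and Mmp3 had passed the low-value filter through the mdx libraries alone. The median log2 fold change of the tested members went from 1.62 to 1.12, and that of all tested genes from 0.13 to −0.03. Over all genes the same correction moved the split of calls from 2659 higher and 1868 lower (58.7% higher) to 1446 and 1613 (47.3%). Mmp3 was the called member whose log2 fold change grew, from 5.73 to 6.05.

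Per kb of exon, a scale on which genes can be compared, inhibitors and proteases were both higher in mdx. Levels here are normalized counts per kb of merged exons. In wild type, the highest members were Adamts1 (872 ± 383, SD, n = 2), Timp2 (735 ± 6.35), Mmp2 (466 ± 124) and Adam10 (376 ± 1.58), and the neighbours Adamts1 and Timp2 did not differ beyond their spread. In mdx, the order was Timp2 (1578 ± 160, SD, n = 3), Mmp2 (1515 ± 487), Adamts1 (772 ± 154) and Timp3 (473 ± 90.3), with Timp2 and Mmp2 not apart beyond their spread. Mmp14 (344 ± 28.9) came next and lay within the spread of Adam10 (338 ± 61.4).

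**Figure D4:**
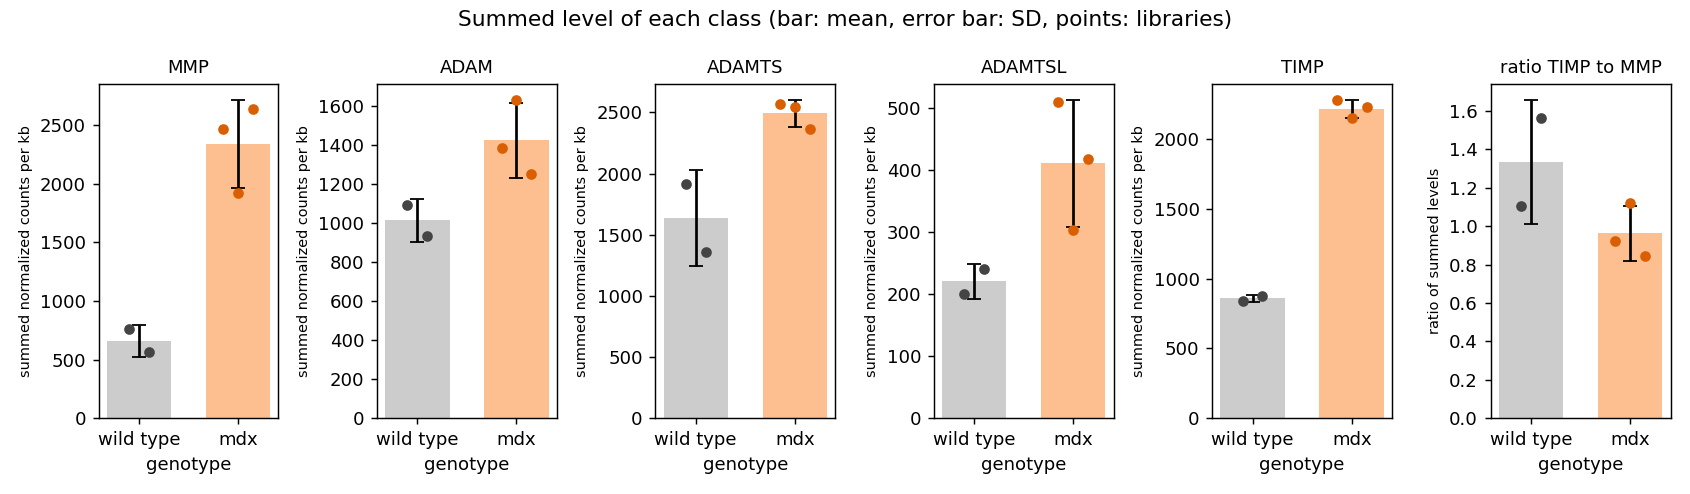
Summed level of each class per library in normalized counts per kb of exon (first 5 panels) and the ratio of the TIMP sum to the MMP sum (last panel). Bars are means, error bars SD, and points the 2 wild-type and 3 mdx libraries. The MMP and TIMP sums do not overlap between genotypes, while the ratio does.

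Summed over the class, MMP levels were 759 and 562 in the wild-type libraries against 2466, 1921 and 2643 in mdx, 3.55 times higher by the means. TIMP levels were 840 and 879 in the wild-type libraries against 2277, 2150 and 2231 in mdx, 2.58 times higher. For both classes the genotypes did not overlap, and the two-sided exact permutation test gave p = 0.1, the smallest that 2 against 3 libraries allow. The ratio of TIMP to MMP levels was 1.11 and 1.56 in wild type and 0.924, 1.12 and 0.844 in mdx. These overlap (exact permutation p = 0.3, where 0.1 is the smallest possible), and with so few libraries the test could not have shown a shift. ADAMTS sums were 1.52 times higher (exact permutation p = 0.1), ADAM sums 1.40 times and ADAMTSL sums 1.86 times (both exact permutation p = 0.2, with no overlap between genotypes).

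The shares of single genes in the class sums lay apart between genotypes for 4 quantities. Timp2 made up 87.0% and 84.2% of the TIMP sum in wild type and 68.4%, 66.5% and 78.3% in mdx, where Timp3 held 24.7%, 22.0% and 17.1% instead of 11.0% and 6.93%. Adam10 and Adam17 together held 51.7% and 61.9% of the ADAM sum in wild type and 29.8%, 30.9% and 42.0% in mdx. Adamts1 held 59.6% and 44.1% of the ADAMTS sum in wild type and 36.9%, 25.9% and 30.0% in mdx. The genotypes did not overlap in these shares, at an exact permutation p of 0.2 for the Timp2 share and 0.1 for the shares of Timp3, of Adam10 with Adam17 and of Adamts1. Mmp2 remained the main part of the MMP sum, at 73.0% and 67.5% in wild type and 70.8%, 49.7% and 69.8% in mdx.

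Genes around the proteases moved in both directions, and their counts stand beside 14.6% higher and 10.3% lower over all tested genes. Of 18 tested genes that control the maturation or activity of metalloproteinases, 5 rose and 1 fell (median log2 fold change 0.28). Furin, which cuts the precursors of Mmp14 and many ADAMs, had normalized counts of 676 and 811 in wild type against 2025, 1874 and 2476 in mdx (2.84-fold, limma adjusted p = 0.00155), a call that ended after length and GC correction (adjusted p = 0.163). Lrp1, the receptor that takes up proteases bound to their inhibitors, rose 5.12-fold, from 4383 and 4473 to 24793, 18430 and 25592 (limma adjusted p = 4.5e-05). The proteoglycan genes Spock2 and Spock3 moved apart: Spock2 rose from 1 and 3 to 226, 257 and 188, and Spock3 fell from 222 and 318 to 62, 33 and 17 (limma adjusted p = 0.0017 and 0.0242).

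In the plasminogen system, the other main protease system of the matrix, 3 of 16 tested genes rose, near the share over all genes, and 4 fell (median log2 fold change 0.12). S100a10, a plasminogen receptor subunit, fell 3.16-fold and Serping1, the inhibitor of complement C1 proteases, 2.93-fold (limma adjusted p = 0.00157 and 0.00411). The call for S100a10 ended after length and GC correction (adjusted p = 0.0682). Fap, a serine protease of activated fibroblasts, rose 4.01-fold, from 147 and 128 to 653, 649 and 406 (limma adjusted p = 0.0059). Serpina3n rose from 2 and 0 to 125, 144 and 212, and Dpp4 was listed at 0 in wild type, against 105, 17 and 104 in mdx (limma adjusted p = 0.00347 and 0.0252), with the call for Dpp4 ending after length and GC correction (adjusted p = 0.0535).

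Of 11 tested other metalloproteinases and their partners, 6 rose and 0 fell (median log2 fold change 1.93). Ece1, the endothelin-converting enzyme, had 580 and 751 in the wild-type libraries against 4501, 3840 and 4125 in mdx (6.27-fold, limma adjusted p = 5.4e-05). Of 29 tested substrates of ADAM sheddases, 18 rose and 3 fell (median log2 fold change 1.47). App, the amyloid precursor, rose 2.77-fold and Notch1 3.43-fold (limma adjusted p = 0.000234 and 0.000563), the latter with its call ended after length and GC correction (adjusted p = 0.242). Cdh5, a cadherin of endothelium, rose from 12 and 45 to 4819, 4253 and 4505. Sdc4, a syndecan of satellite cells, fell 10.0-fold, from 30886 and 27833 to 3261, 2633 and 2916 (limma adjusted p = 7.38e-06). Vcam1 fell 1.56-fold and Prnp 2.18-fold (limma adjusted p = 0.0409 and 0.0438), and both calls ended after length and GC correction (adjusted p = 0.112 and 0.0577). Over the 5 libraries Adam10 and Adam17, the enzymes that release many such proteins, did not pass, as given above.

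Of 18 tested matrix substrates of MMPs and ADAMTS proteases, 17 rose and 0 fell (median log2 fold change 3.12). Fn1, fibronectin, went from 290 and 183 to 15752, 12405 and 12325 (57.7-fold, limma adjusted p = 2.74e-06). Of 16 tested inducers and transcription factors of MMP genes, 7 rose and 2 fell (median log2 fold change 1.03). Fos and Fosl2, parts of the AP-1 factor, were those that fell. Fos had 61101 and 47088 in the wild-type libraries against 27584, 14700 and 20663 in mdx (2.64-fold lower, limma adjusted p = 0.00368). Fosl2 was 2.86-fold lower (limma adjusted p = 0.00134). Jun, a further part of AP-1, rose 2.07-fold, from 20426 and 14296 to 38697, 27028 and 42243 (limma adjusted p = 0.00914). The call for Jun ended after length and GC correction (adjusted p = 0.141). Fosl1, also a part of AP-1, did not pass (96 and 46, then 118, 310 and 277). Ets1 rose 8.80-fold, Runx2 14.8-fold and Nfkb1 2.03-fold (limma adjusted p = 0.00161, 0.00233 and 0.00481), the call for Runx2 ending after length and GC correction (adjusted p = 0.0507). These lists were read at the adjusted p of the fit over all genes and were not tested as lists.

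The 25 risen members did not share 1 leading library. Mdx 2 was the highest of the mdx libraries for 12 of them, mdx 1 for 7 and mdx 3 for 6, and mdx 3 was the lowest for 13. Of the 25, 7 were at 0 in both wild-type libraries and 10 had a wild-type mean of at least 100. Over all 62 members, 33 were above 0 in all 5 libraries, 17 were at 0 in both wild-type libraries and 1 was at 0 in all mdx libraries. Of the 17 members at 0 in wild type, 10 were among the 18 MMP genes. Among all 22683 genes, 3804 had no counts in wild type and 1150 had none in mdx, so such absence also occurred outside the members.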

How the data were processed

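RNA was sequenced from sorted satellite cells of 2 wild-type and 3 mdx libraries, grouped by their titles. The submitters' processing notes name STAR 2.6.1d, featureCounts 1.6.3 (Subread), DESeq2 1.18.1 and the build mm10. Libraries were made with a stranded total RNA kit, per the labels' protocols, and for the counting, strand setting and handling of duplicate and multimapping reads were not stated in the sources used here. The deposited values are whole numbers but not raw counts: they are treated as a score, the normalized count that the authors rounded, because the median ratio to the gene geometric means was 1.0347 to 1.0355 in all 5 libraries and mdx 1 lacked 6 of the numbers between 1 and 30. The read depth behind each value is therefore unknown, and totals were 12473348 to 16825045 normalized counts.

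Values were taken as log2(normalized count + 2), and genes with at least 10 in at least 2 libraries were fitted with limma 3.58.1 (R 4.3.3) with genotype as the only term, trend and robust moderation, two-sided p-values and Benjamini-Hochberg adjustment over 18199 genes. A fold is 2 to the power of the difference of log2 means, so the added 2 understates changes of low genes, and none is given where a genotype is listed at 0. The fit was tested on simulated tables with known changes. Where a library was left out, the filter was applied again, and with 1 wild-type library that library was assumed to vary like the others.

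Exon lengths came from merged GENCODE M21 exons and the correction used length and GC content of the longest transcript, with splines of 4 degrees of freedom. All 62 members were found there by identifier, 37 with the coordinates of the deposited table. All members may be named. Values in every library are given for the TIMPs, Mmp2, Mmp9, Mmp14, Adam10, Adam17 and called members, and up to 3 called genes per direction are named for each of 6 pathway lists, except 1 gene that is not reported here. Markers for 10 cell types were fixed by name, and Comp, Col1a1, Jun, Fosl1 and synapsin values are given as context. Lymphocyte markers gave 0 calls among 5 tested genes and myofiber markers 4 rises among 11. The members and lists were chosen with earlier results of these data known. The planned sequence motifs of member proteins are not analysed here.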

Additional observations from a re-analysis of the deposited data

How the results depend on the processing

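Fits differed in pseudocount (0.5, 10), filter (none, at least 50), scaling (equal totals, quantiles), length and GC correction, moderation, replicate block and libraries left out. The 25 risen members numbered 22 and 23 with a pseudocount of 0.5 and 10, 25 and 24 with no and a stricter filter, 25 at equal totals and 23 after quantile normalization. They numbered 12 after length and GC correction, 15 without trend and robust moderation and 15 with the replicate block. Without 1 library there were 16 to 28 risen and 0 to 1 fallen members, the latter Adam30 without wild type 2.

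Over all genes, 2659 higher and 1868 lower calls became 1446 higher after length and GC correction, 1163 higher and 860 lower with the replicate block, 1150 lower without trend and robust moderation, and 1450 to 3308 higher and 1112 to 1853 lower without 1 library. Equal totals gave 2808 higher and 1345 lower and moved the median log2 fold change of all tested genes from 0.13 to 0.31. The 56 higher and 10 lower pathway genes became 30 higher after length and GC correction, 3 lower without moderation, 6 lower with the block, and 38 to 58 higher and 5 to 9 lower without 1 library.

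Replicate numbers are not stated to mark pairs, and the differences between libraries 1 and 2 correlated with r = −0.017 between the genotypes across 18199 genes, so the numbers give no pairing. The block left 1 residual degree of freedom and gave 15 risen members against 25.

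Log2 fold changes turned sign only for members that did not pass. At equal totals this held for Adam10 (0.016), Adam4 (0.14), Adamts1 (0.068), Adamts15 (0.096) and Mmp19 (0.017), and after quantile normalization for Adamts1 (0.17). After length and GC correction it held for Adam4 (0.30), Adamts10 (−0.63), Adamts20 (−0.23) and Adamtsl4 (−0.60), and with the replicate block for Adam4 (0.41). Without 1 library the value ranged from −0.11 to 3.28 for Adam11, from −1.31 to 2.90 for Adam18, from −1.21 to 0.082 for Adam22, from −1.002 to 0.92 for Adam4, from −0.58 to 0.34 for Adamts1, from −0.25 to 0.020 for Adamts15, from −0.015 to 2.08 for Adamts4 and from −0.38 to 0.055 for Mmp19. The cause of these changes was not tested, and with read depth unknown the precision of low values cannot be given.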
